A study of Mus musculus with 2 samples.

Results

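Lower-villus enterocytes are absorptive cells that have recently left the intestinal crypt and line the lower part of the villus. They were examined in single-cell libraries of the small intestine of 1 FMTg mouse and 1 Tg mouse. The FMTg mouse (Mdm2FM/- Cag-CreERTg) is labelled as having acute p53 activation through loss of Mdm2, and the Tg mouse (Mdm2+/- Cag-CreERTg) as retaining Mdm2. Both animals were C57BL/6j, 60 days old, carried 1 minus allele of Mdm2 and the Cag-CreERTg transgene, and were sampled 24 hours after tamoxifen, given once at 6 mg per 40 g. Cag is a broadly active promoter, so recombination was not directed to enterocytes, and the labels do not say which part of Mdm2 the FM allele can lose. With 1 library per genotype there was no replicate, no test was made, and every interval is a 95% interval that covers counting error only.

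The members were chosen by measured transcript counts, the UMIs of the genes in the rule that follows. Of 12652 barcodes, 777 had at least 3000 unique molecular identifiers (UMIs, each counting 1 captured transcript), at most 25% mitochondrial UMIs, at least 1 Epcam UMI, no Ptprc UMI, fewer than 5 Fcgbp and fewer than 3 Dclk1 UMIs, and at least 1% of UMIs from Apoa1, Fabp1, Fabp2 and Rbp2. Each such barcode got 3 scores, the summed UMI share of 5 genes for the lower villus (Car4, Ccl25, Reg3a, Aldh1a1 and Maoa), the mid-villus (Slc5a12, Pck1, Lct, Slc13a2 and Pdzk1) and the villus tip (Ada, Nt5e, Slc28a2, Enpp3 and Clca4a), each divided by its mean over both libraries. The 279 barcodes with the lower-villus score on top are the lower-villus enterocytes, 84 of 399 enterocyte barcodes in FMTg and 195 of 378 in Tg.

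As background, enterocytes are born in the crypt and travel up the villus over a few days, changing their genes as they climb. Near the base they make antimicrobial lectins of the Reg3 family and the chemokine Ccl25, which draws lymphocytes to the small intestine. Higher up they turn to fat handling, and at the tip to purine breakdown and to shedding into the lumen. The transcription factor p53 switches on genes that stop the cell cycle, start apoptosis or repair DNA, and Mdm2, itself a p53 target, is the ubiquitin ligase that keeps p53 protein low.

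The genes of the rule describe the members and support nothing else. In lower-villus barcodes Car4, a membrane carbonic anhydrase, was at 94.7 UMIs per 1000000 (CPM) in FMTg and 116 CPM in Tg, and Ccl25 was at 551 CPM in FMTg and 547 CPM in Tg. The monoamine oxidase gene Maoa was at 376 CPM in FMTg and 444 CPM in Tg, and the retinal dehydrogenase gene Aldh1a1 at 125 CPM in FMTg and 127 CPM in Tg. Reg3a was lower, 96.4 CPM in FMTg and 164 CPM in Tg. The lower-villus score was a median of 6.36 times the next score in FMTg and 3.95 times in Tg, and it was less than 1.5 times the next score in 12 FMTg and 28 Tg members. The members nearest to the limit had 1.05 times the next score in FMTg and 1.002 times in Tg, and the barcodes just outside it 0.975 times in FMTg and 0.987 times in Tg.

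The members held 2301673 UMIs in FMTg and 7334396 in Tg, with a median of 28316 UMIs per barcode in FMTg (3066 to 83224) and 34514 in Tg (3405 to 118198). Their median mitochondrial share was 16.9% in FMTg and 15.7% in Tg, so most members lie in the upper part of the range that the filter allows. No member barcode was in both libraries, although 14 barcodes of the whole files were. The lower-villus class made up 21.1% of enterocyte barcodes in FMTg (17.2% to 25.4%) and 51.6% in Tg (46.4% to 56.7%). The tip class took the larger place in FMTg, with 37.3% of enterocyte barcodes (149 of 399), against 7.94% in Tg (30 of 378). The mid-villus class was close in the libraries, at 41.6% in FMTg and 40.2% in Tg. With a mitochondrial limit of 10% the order of the lower-villus shares turned, 42.9% in FMTg and 35.3% in Tg, on 3 FMTg and 6 Tg members. Because genes of the rule set these shares, they are a description of how the rule divided each library, and each library's yield of barcodes along the villus cannot be told apart from the genotype.

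**Figure D1:**
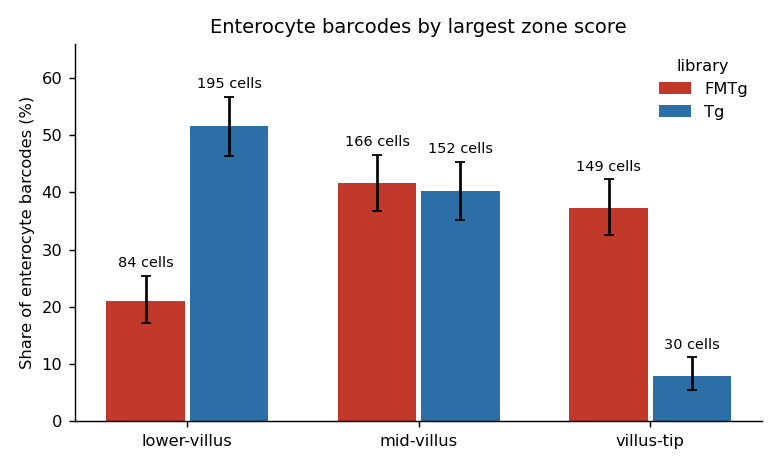
Share of enterocyte barcodes in each villus class, in percent of the 399 FMTg and 378 Tg barcodes that passed the filters. Bars are shares, whiskers exact 95% binomial intervals, and the number of cells stands above each bar: the lower-villus bar is at 21.1% in FMTg and 51.6% in Tg.

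RNA of other cell types was scarce in the members, and hormone and haemoglobin transcripts lay largely in single barcodes. Summed T and NK cell markers were at 33.9 CPM in FMTg and 94.9 CPM in Tg, against 36681 CPM in FMTg and 37934 CPM in Tg in leukocyte barcodes (Ptprc detected and Epcam at 0, 958 in FMTg and 764 in Tg). B and plasma cell markers were at 55.2 CPM in FMTg and 23.04 CPM in Tg, and goblet cell markers at 369.7 CPM in FMTg and 385 CPM in Tg. Enteroendocrine markers were at 266 CPM in FMTg and 668 CPM in Tg, and 1700 of the 1764 Tg UMIs of the incretin gene Gip came from 1 barcode. Haemoglobin was similar in kind: 582 of the 586 FMTg UMIs of Hbb-bs were in 1 barcode, against 7 Hbb-bs UMIs in all Tg members. Myeloid markers were at 6.52 CPM in FMTg and 16.5 CPM in Tg, and Paneth, tuft, acinar and stromal markers were each under 20 CPM in both libraries. The crypt stem cell gene Olfm4 had 1 UMI over all members and the proliferation gene Mki67 had 2. Without the members that had 1% or more of UMIs in any such marker list, which left 82 in FMTg and 193 in Tg, the p53 list described below had a median ratio of 0.62 in place of 0.62.

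To see what the members share beyond the rule, each library's lower-villus barcodes were set against its own mid-villus and tip barcodes, as a description since the classes were cut from the same cells. These other enterocytes were 166 mid-villus and 149 tip barcodes in FMTg, but 152 and 30 in Tg. The references thus differ in tip content, so a larger ratio in 1 library cannot be read as a steeper change along the villus. Over 8846 genes with enough counts, 9.28% were at least 1.5-fold higher in lower-villus barcodes in both libraries and 12.1% at least 1.5-fold lower in both. Of 14 secreted antimicrobial genes, 7 were at least 1.5-fold higher in lower-villus barcodes and 5 lower in FMTg (22.8% and 27.7% of all genes), and 8 higher and 2 lower in Tg (11.6% and 15.8% of all genes). Reg3b, a bactericidal lectin and the largest single product of these cells, was at 76391 CPM in lower-villus barcodes and 25644 CPM in the other enterocytes in FMTg, and at 93850 CPM and 55840 CPM in Tg. Lypd8, a secreted protein that keeps flagellated bacteria from the epithelium, had log2 ratios of lower-villus over other enterocytes of 3.31 in FMTg and 1.91 in Tg. Among lower-villus genes that the rule did not use, 9 of 10 were at least 1.5-fold higher in lower-villus barcodes in FMTg and 7 in Tg, and none lower.

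The genes with large ratios of lower-villus over other enterocytes were of mixed function. The ratios were 6.90 in FMTg and 4.85 in Tg for Gsta1, 3.55 and 3.31 for Gsta4, and 4.06 and 2.93 for Gstp3. All 3 are glutathione S-transferases, a family in which some close copies may share reads. The highest ratio by the smaller value of both libraries was that of Ms4a18, a membrane protein of the Ms4a family, at 6.76 in FMTg and 5.92 in Tg. Cldn2, the pore-forming claudin of leaky epithelium, had 4.10 in FMTg and 3.12 in Tg. Pycard, the adaptor that joins inflammasome sensors to caspases, had 5.03 in FMTg and 3.003 in Tg, and Dmbt1, a mucosal scavenger protein that binds bacteria, had 3.39 and 2.95. Krt19, a keratin of progenitor and lower-villus epithelium, had 4.54 in FMTg and 2.76 in Tg. The lists that hold such genes had calls in both directions. Of 17 tight junction and adhesion genes, 1 was higher and 11 lower in lower-villus barcodes in FMTg (22.8% and 27.7% of all genes). In Tg 1 was higher and 4 lower (11.6% and 15.8% of all genes). Of 30 amine and xenobiotic genes, 13 were higher and 5 lower in FMTg, and 9 and 3 in Tg, against the same shares. They summed to 5948 CPM in lower-villus and 7118 CPM in other barcodes in FMTg, and to 6045 and 7206 CPM in Tg.

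Nuclear genes of oxidative phosphorylation lay higher in the lower-villus barcodes. Their median ratio was 0.94 in FMTg, where 66 of 76 were past 1.5-fold (22.8% of all genes), and 0.46 in Tg, where 17 were (11.6% of all genes). None was past 1.5-fold lower. Genes of the unfolded protein response had medians of 0.48 in FMTg and 0.59 in Tg. Against these stood sugar and peptide digestion (medians -0.61 in FMTg and -0.32 in Tg), lipid handling (-0.60 and -0.40), MHC class I (-0.85 and -0.65), the interferon response (-0.69 and -0.61) and anti-apoptotic genes (-0.82 and -0.78), all lower in lower-villus barcodes. Apoa4, the chylomicron apolipoprotein of the upper villus, was at 4075 CPM in lower-villus and 26728 CPM in other barcodes in FMTg, and at 3828 CPM and 14556 CPM in Tg. The median over all genes was -0.12 in FMTg and -0.11 in Tg. Tip barcodes made up more of the reference in FMTg, so the sizes of these medians cannot be compared between the libraries.

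**Figure D2:**
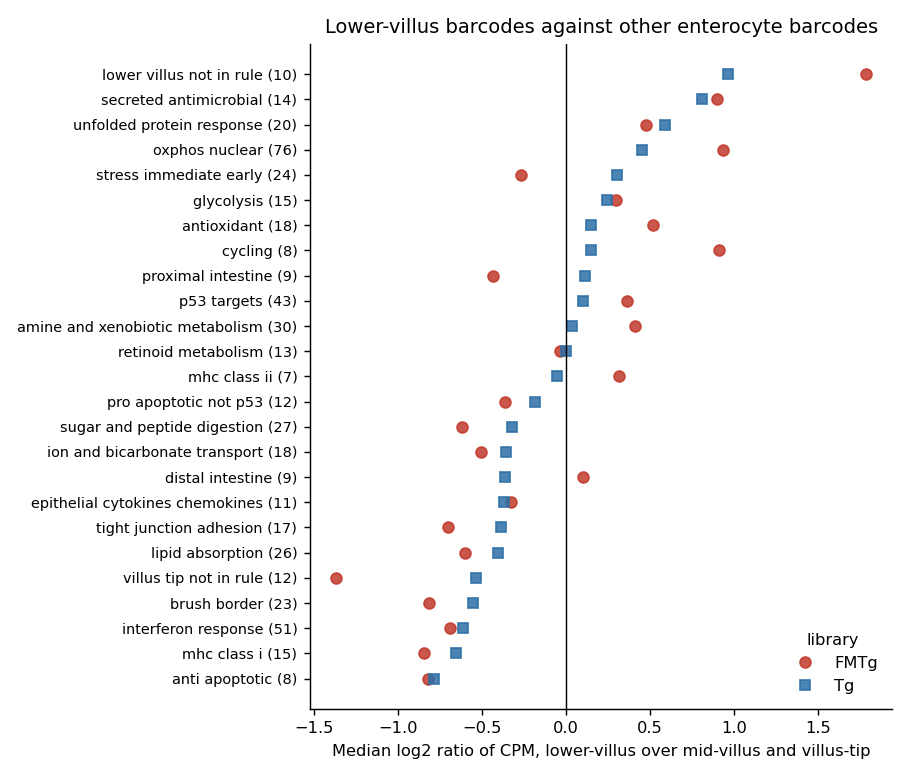
Median log2 ratio of CPM of each gene list, lower-villus barcodes over mid-villus and villus-tip barcodes of the same library, with the number of measured genes in brackets. Red circles are FMTg and blue squares Tg: oxidative phosphorylation lies at 0.94 in FMTg and 0.46 in Tg, and MHC class I at -0.85 and -0.65. The reference holds 149 tip barcodes in FMTg and 30 in Tg.

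The main question was how lower-villus enterocytes of the FMTg mouse differed from those of the Tg mouse. The UMIs of all members were summed per library. Ratios below are log2 of CPM in FMTg over CPM in Tg, and only some are printed with their interval. Of 7436 genes with at least 50 UMIs over both libraries, 742 (9.98%) were at least 1.5-fold higher in FMTg and 567 (7.63%) at least 1.5-fold lower. The median over all these genes was 0.013. With scaling by TMM the split was 8.28% higher and 9.47% lower, and with totals without mitochondrial and the 20 most abundant genes 7.504% and 10.5%, so the balance of higher and lower genes depends on the scaling.

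Mdm2 itself (chr10:117688875-117710758, minus strand, GRCm38) was higher in FMTg members. It had 372 UMIs in FMTg and 724 in Tg, or 162 CPM and 98.7 CPM, a ratio of 0.71 (0.53 to 0.89). The library counts tags near the 3′ end, so a deletion elsewhere in the gene would not show, and this value does not check the genotype. With each barcode thinned to 3000 UMIs, a Mdm2 UMI was found in 41.7% of FMTg and 26.1% of Tg members (84.5% and 83.1% unthinned), against 19.1% of FMTg and 19.2% of Tg leukocyte barcodes, whose median depth was 4524 UMIs in FMTg and 4728 in Tg. Trp53, the p53 gene, had only 33 UMIs in FMTg and 58 in Tg (0.86, 0.20 to 1.499), too few to place the size of its difference well. In mid-villus barcodes its ratio was -0.44.

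The p53 target list was the highest of the lists of 10 or more measured genes. Its summed level was 4978 CPM in FMTg and 3174 CPM in Tg, and 21 of 40 measured genes were at least 1.5-fold higher and 2 lower, against 9.98% and 7.63% of all genes. The median ratio over the list was 0.62. Per barcode, the list ran from 775 to 12963 CPM with a median of 5302 CPM in FMTg, and from 768 to 9576 CPM with a median of 2576 CPM in Tg. The ranges overlap, and the FMTg lower quartile of 3563 CPM lies above the Tg median. The list was chosen with earlier results of these data known, so its direction is not independent support.

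Of the cell cycle genes of the list, Cdkn1a and Ccng1 were found in most members. Cdkn1a (chr17:29090976-29100727, plus strand), which encodes the cyclin-dependent kinase inhibitor p21, had 1905 UMIs in FMTg and 4042 in Tg, or 828 CPM and 551 CPM, a ratio of 0.59 (0.51 to 0.67). It was seen in nearly all members: 82 of 84 in FMTg and 193 of 195 in Tg had a UMI, and after thinning 82.1% and 70.8%, against 16.1% of FMTg and 16.5% of Tg leukocyte barcodes. Ccng1, a cyclin that feeds back on the p53 and Mdm2 circuit, was at 357 CPM in FMTg and 187 CPM in Tg (0.93, 0.80 to 1.05). Its thinned share was 59.5% of FMTg and 35.4% of Tg members, against 23.1% and 17.0% of leukocyte barcodes. Psrc1, a spindle protein, was rarer, with 67 UMIs in 33 FMTg barcodes and 58 in 31 Tg barcodes (1.88, 1.35 to 2.41), and Ccnd2, a G1 cyclin, had 50 UMIs in 13 FMTg barcodes and 20 in 13 Tg barcodes (2.99, 2.22 to 3.82).

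Other genes of the list have roles in apoptosis and repair. Bax, which permeabilises the mitochondrial outer membrane, was at 371 CPM in FMTg and 209 CPM in Tg (0.83, 0.70 to 0.95), and the death receptor gene Eda2r had 34 UMIs in FMTg and 37 in Tg (1.55, 0.83 to 2.26). Rps27l, a ribosomal protein paralogue that is a p53 target, was the most abundant target, at 1231 CPM in FMTg and 678 CPM in Tg (0.86, 0.79 to 0.93). The largest ratio of the 10 highest genes belonged to Mgmt, which repairs alkylated guanine, with 99 UMIs in 32 FMTg barcodes and 49 in 22 Tg barcodes (2.69, 2.18 to 3.21). Plk3, a stress kinase, and Gadd45a, a growth arrest gene, were the targets past 1.5-fold lower, with 13 and 63 UMIs in FMTg against 98 and 302 in Tg (both named after their values were seen). Outside the p53 list, 3 of 10 measured pro-apoptotic genes were at least 1.5-fold lower in FMTg and none higher, against 7.63% and 9.98% of all genes. In mid-villus barcodes 2 of 10 were higher and none lower, against 10.3% and 6.67% of all genes. The list medians were close, at -0.33 in lower-villus and -0.31 in mid-villus barcodes. The lower ones in lower-villus barcodes were the caspases Casp6 (205 CPM in FMTg and 318 CPM in Tg) and Casp9 (12 and 62 UMIs), and Bad (52.6 and 82.9 CPM), a killer protein of the Bcl2 family. The Casp9 call rests on few UMIs, and its ratio ran from -0.89 to -0.13 over the settings tried.

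**Figure D3:**
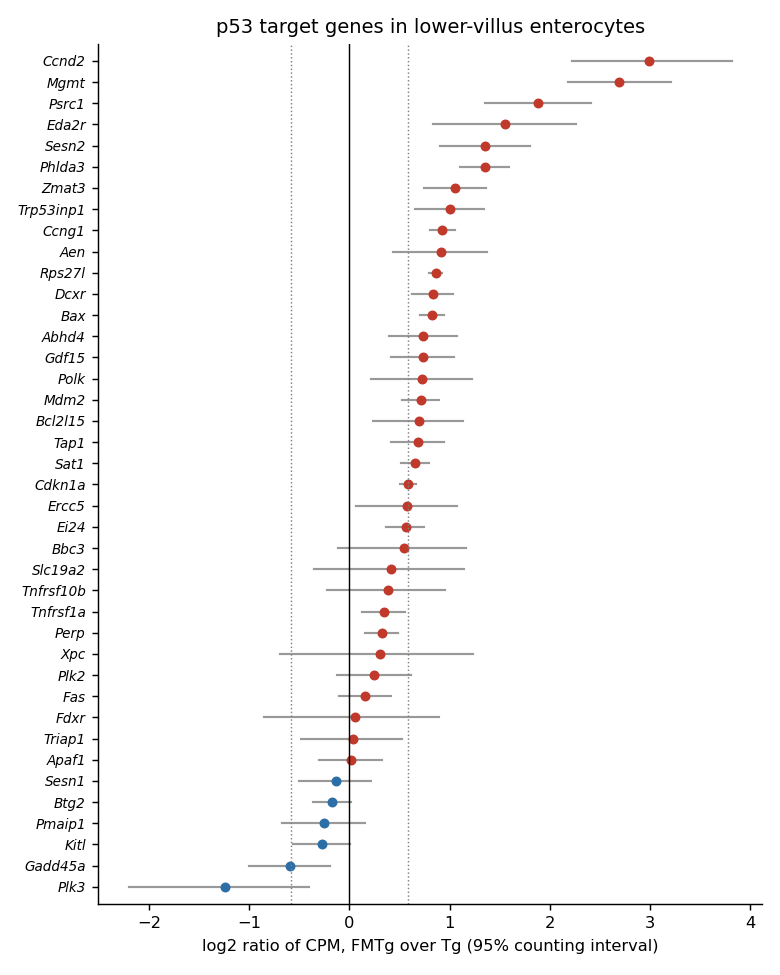
Log2 ratio of CPM, FMTg over Tg, of the 40 measured p53 targets in lower-villus barcodes, with 95% counting intervals as bars. Red points are higher in FMTg and blue points lower, and dotted lines mark 1.5-fold: 21 genes lie past the upper line and 2 past the lower.

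Cdkn1a, Mdm2, Ccng1 and Bax were higher together in the FMTg members, so their promoters are shown, read for the p53 half-site, the short palindromic motif that a p53 dimer binds. The window runs from 250 bases before to 50 bases after each RefSeq gene start (GRCm38.p6), the pattern reads the same on both strands, and matches are in capitals. A half-site occurs in 9.55% of the 27025 genes of the table, and in 11 of the 33 measured targets found there. A pair of half-sites with at most 13 bases between them occurs in 20 genes of the table, and Cdkn1a is the measured target that has one. A match is a match of letters and not shown to be a bound site. The first sequence is the whole Cdkn1a window, chr17:29090729-29091028 on the plus strand, and the others are 60 bases around the half-site of Mdm2 (chr10:117710910-117710969, minus strand), Ccng1 (chr11:40755437-40755496, minus strand) and Bax (chr7:45467065-45467124, minus strand).
Cdkn1a: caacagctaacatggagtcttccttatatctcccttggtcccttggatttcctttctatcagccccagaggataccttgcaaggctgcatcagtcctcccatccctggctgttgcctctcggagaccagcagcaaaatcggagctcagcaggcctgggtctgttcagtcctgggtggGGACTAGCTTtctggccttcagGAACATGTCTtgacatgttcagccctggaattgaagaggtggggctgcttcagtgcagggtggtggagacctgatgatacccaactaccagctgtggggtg
Mdm2: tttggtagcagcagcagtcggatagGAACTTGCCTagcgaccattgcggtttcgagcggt
Ccng1: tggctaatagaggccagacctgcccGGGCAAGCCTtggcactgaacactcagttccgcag
Bax: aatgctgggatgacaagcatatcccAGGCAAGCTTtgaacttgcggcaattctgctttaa

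Set side by side along the villus, the p53 list had the same direction in all 3 classes. The median over the list was 0.62 in lower-villus, 0.69 in mid-villus (21 of 35 past 1.5-fold higher and 1 lower, against 10.3% and 6.67% of all genes) and 0.34 in tip barcodes (9 of 24, against 17% of all genes). Mdm2 was at 0.71 in lower-villus, 0.80 in mid-villus and 0.82 in tip barcodes, and Ccng1 at 0.93, 0.99 and 0.95. Cdkn1a was at 0.59, 0.99 and 0.34, with a mid-villus interval of 0.92 to 1.07 that does not overlap the lower-villus one. Bax ran the other way, at 0.83, 0.48 and 0.21. The tip ratios rest on 30 Tg barcodes, and no ratio between classes has a replicate check.

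**Figure D4:**
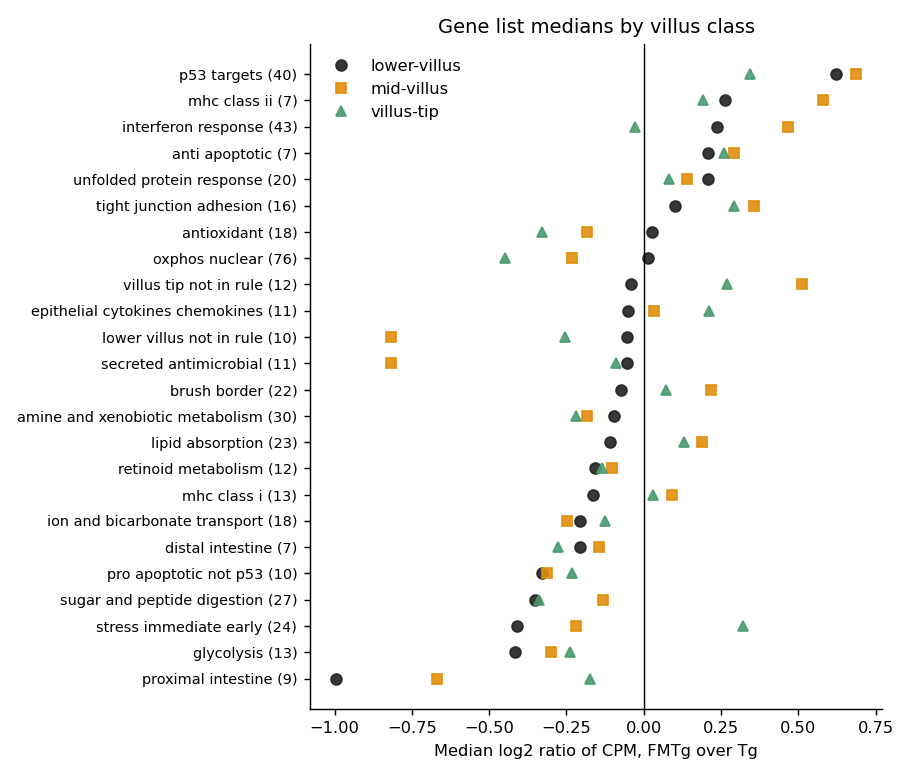
Median log2 ratio of CPM, FMTg over Tg, of each gene list in lower-villus (black circles), mid-villus (orange squares) and villus-tip barcodes (green triangles), with the number of genes measured in lower-villus barcodes in brackets. The p53 targets lie at 0.62, 0.69 and 0.34, and the proximal intestine genes at -0.995 in lower-villus barcodes.

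Beyond the p53 list, the genes with the largest ratios were of mixed function. Siva1, a p53 target that promotes apoptosis, had 158 UMIs in 29 FMTg barcodes and 106 in 32 Tg barcodes (2.25, 1.88 to 2.62). Hes1, the Notch effector that favours absorptive fate, was at 48.2 CPM in FMTg and 12.1 CPM in Tg (1.99, 1.57 to 2.41). Duox2, the oxidase that releases hydrogen peroxide at the apical surface, had 69 UMIs in FMTg and 54 in Tg (2.03, 1.49 to 2.57), and its maturation partner Duoxa2 had 69 in 20 FMTg barcodes and 13 in 11 Tg barcodes (4.08, 3.21 to 5.06). Both partners were also higher in mid-villus barcodes, at 1.61 and 4.10. Slfn2, a Schlafen family gene, was at 107 CPM in FMTg and 32.2 CPM in Tg (1.73), and B3galt5, a galactosyltransferase of glycan chains, at 41.3 and 9.82 CPM (2.07). The LIM domain gene Crip2 (2.20), the WD repeat gene Wdr89 (2.04) and Gm3776 (1.88) completed the 10 highest with Mgmt and Psrc1.

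Genes of the proximal intestine, where dietary iron and calcium are absorbed, had the lowest median ratio of the lists that are not markers of other cell types. It was -0.995 over 9 measured genes, 5 of them at least 1.5-fold lower in FMTg and 1 higher, against 7.63% and 9.98% of all genes. With each barcode given equal weight the median was -0.43, and with enterocyte genes required at 5% of UMIs -0.14. Slc11a2 (chr15:100387898-100425072, minus strand), the apical importer of ferrous iron, had 86 UMIs in FMTg and 2028 in Tg, or 37.4 CPM and 276 CPM (-2.89, -3.22 to -2.58). Slc40a1, ferroportin, the basolateral iron exporter, was at 41.7 CPM in FMTg and 160.2 CPM in Tg (-1.94, -2.26 to -1.64). Slc46a1, the proton-coupled folate importer, was at 40.0 CPM in FMTg and 92.3 CPM in Tg (-1.21, -1.54 to -0.89), and S100g, the calcium-binding calbindin of the duodenum, at 864 and 1723 CPM (-0.995, -1.06 to -0.93). The duodenal transcription factor gene Pdx1 was at 19.1 CPM in FMTg and 38.6 CPM in Tg (-1.01, -1.51 to -0.55). Genes of the distal intestine had a median of -0.21, with 1 of 7 higher (Bcl2l15) and 3 lower (Nr0b2, Gm11437 and Amn), but their summed level ran the other way, 3149 CPM in FMTg and 2922 CPM in Tg (0.11, 0.069 to 0.147).

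The members were divided into barcodes poor and rich in proximal transcripts. The list took at least 0.1% of UMIs in 20 of 84 FMTg members (23.8%, 15.2% to 34.4%) and in 74 of 195 Tg members (37.9%, 31.1% to 45.2%), a limit set after the values had been seen. Since the genes compared belong to the list that makes the split, Slc11a2, Slc40a1 and S100g were each followed in members divided by the other genes of the list at the same limit. Slc11a2 had 33 UMIs in 19 FMTg and 1880 in 71 Tg members at or above it (-3.29, -3.84 to -2.80), and 53 in FMTg and 148 in Tg below it (-0.20, -0.68 to 0.26). Slc40a1 was lower in FMTg on both sides, at -1.24 (-1.58 to -0.91) and -1.39 (-2.31 to -0.56), the second on 14 FMTg and 91 Tg UMIs. With members divided by the whole list, its proximal-poor ratio was -0.94 (-2.17 to 0.12) on 9 and 42 UMIs. S100g was not lower on both sides of the split by the other genes. Its ratio was -0.66 in 7 FMTg and 55 Tg members at or above the limit and 1.06 below it. Pdx1 was lower in FMTg within the proximal-rich members of the whole-list split too (-0.71, -1.37 to -0.11), but Pdx1 itself takes part in that split. The labels do not give the stretch of intestine behind each suspension. Region and genotype therefore cannot be told apart for the counts of proximal-rich members or for the ratios within either part.

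Other iron genes were looked up after these values had been seen. Fth1, the ferritin heavy chain that stores iron, was at 10942 CPM in FMTg and 20528 CPM in Tg (-0.91), and its ratio was -0.63 in proximal-rich, -0.53 in proximal-poor and -0.89 in mid-villus barcodes. The light chain gene Ftl1 was at 1289 CPM in FMTg and 1658 CPM in Tg (-0.36). Tfrc, the transferrin receptor gene, was close at 30.4 CPM in FMTg and 32.2 CPM in Tg, and Heph, the ferroxidase that works with ferroportin, at 127 CPM and 146 CPM. Cybrd1, a ferric reductase of the brush border, had 25 UMIs in FMTg and 41 in Tg (0.96, 0.18 to 1.71) and is the 1 proximal gene past 1.5-fold higher. Importer, exporter and both ferritin transcripts were thus lower in FMTg over all members, Ftl1 by less than 1.5-fold. The importer gene Slc11a2 was close in members poor in the other proximal genes (-0.20, -0.68 to 0.26). The reductase gene Cybrd1 was higher on few UMIs, and all 41 Tg UMIs lay in proximal-rich members. Cybrd1 is itself in the list that makes this split, so its own UMIs took part in placing them there. Its mid-villus ratio was -0.67.

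The p53 list was higher in FMTg on both sides of this split. Its median was 0.82 in proximal-rich and 0.48 in proximal-poor members. Mdm2 was at 0.97 (0.63 to 1.30) in proximal-rich and 0.61 (0.38 to 0.83) in proximal-poor members, Bax at 0.83 and 0.82, and Ccng1 at 1.004 and 0.87. Cdkn1a differed more between them, at 0.93 (0.78 to 1.08) and 0.42 (0.32 to 0.51).

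**Figure D5:**
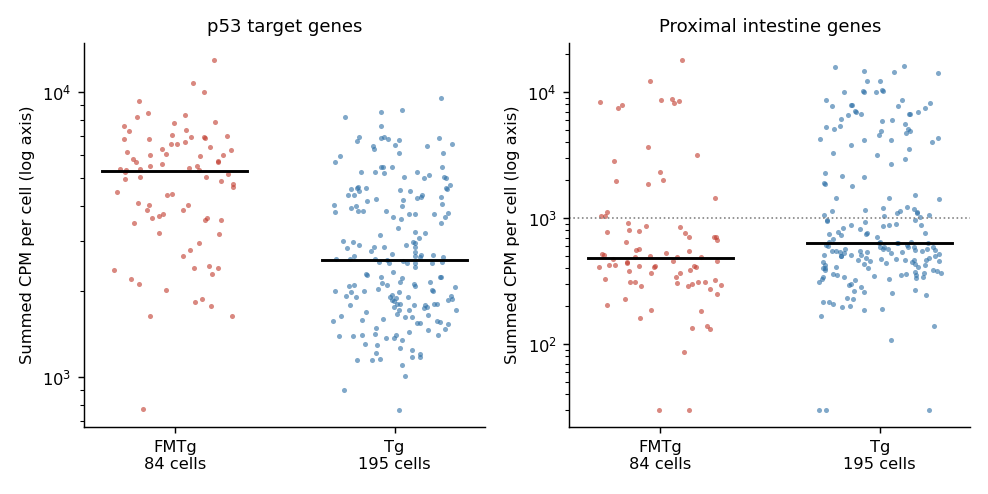
Summed CPM of the p53 targets (left) and of the proximal intestine genes (right) in each lower-villus barcode, on log axes, with FMTg (84 cells) left of Tg (195 cells), black bars at the medians and barcodes at 0 drawn at the foot of the right panel. The p53 medians are 5302 CPM in FMTg and 2576 CPM in Tg, and 20 FMTg and 74 Tg cells lie at or above the dotted line at 0.1% of UMIs.

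Of the lectins Reg1, Reg3b and Reg3g, the main defence products of the lower villus, Reg1 was past 1.5-fold lower in FMTg members. Secreted antimicrobial genes together took 114859 CPM in FMTg and 152472 CPM in Tg. Reg3b was at 76391 CPM in FMTg and 93850 CPM in Tg (-0.30, -0.30 to -0.29), Reg3g, a lectin that binds Gram-positive bacteria, at 25111 and 36545 CPM (-0.54, -0.55 to -0.53), and Reg1 at 4684 and 13917 CPM (-1.57, -1.60 to -1.54). Reg1 was lower in both parts of the proximal split, at -0.79 in proximal-rich and -1.84 in proximal-poor members. The summed list was thus lower in FMTg, while its median ratio was -0.055 over 11 measured genes. Of these, 3 were past 1.5-fold higher (Duox2, Duoxa2 and Reg4) and 2 lower (Reg1 and the bacteria-binding Zg16), against 9.98% and 7.63% of all genes. Lypd8 was at 5316 CPM in FMTg and 4493 CPM in Tg (0.24). These transcripts were also found in leukocyte barcodes, where the list took 1378 CPM in FMTg and 3101 CPM in Tg. A single barcode held 413 of the 414 FMTg UMIs of Reg4, a secretory cell lectin, so its ratio rests on 1 cell.

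Sugar and peptide genes had a median below 0, while lipid genes were called about as often as all genes or less. Of 27 measured sugar and peptide genes, 5 were at least 1.5-fold lower and none higher (7.63% and 9.98% of all genes), with a median of -0.35 that was -0.073 when zone scores were divided by each library's own mean. Slc2a2, the basolateral glucose transporter GLUT2, was at 99.9 CPM in FMTg and 262 CPM in Tg (-1.39, -1.59 to -1.19), and the fructose transporter gene Slc2a5 at 58.6 and 102 CPM (-0.80, -1.08 to -0.54). The others were the disaccharidase gene Treh (-0.83), the enteropeptidase gene Tmprss15 (-0.96), which starts the activation of pancreatic zymogens, and the peptidase gene Naaladl1 (-0.77). Sucrase-isomaltase, Sis, was at 1175 CPM in FMTg and 1696 CPM in Tg (-0.53), short of 1.5-fold, while the apical glucose transporter gene Slc5a1 was at 1063 CPM in FMTg and 1316 CPM in Tg (-0.31). Lipid genes had a median of -0.11, with 1 of 23 higher and 2 lower, against 9.98% and 7.63% of all genes: the lipid droplet coat gene Plin3 was at 0.69, and the apolipoprotein gene Apoc3 and the fatty acid receptor gene Cd36 at -0.79 and -0.79. Apob and Mttp, which build the chylomicron, differed by less than 0.2 on the log2 scale (-0.11 and 0.058).

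Of 12 measured retinoid genes, 2 were past 1.5-fold lower and none higher, against 7.63% and 9.98% of all genes. Lrat, which makes retinyl esters, had 18 UMIs in FMTg and 195 in Tg (-1.76, -2.55 to -1.07), and Adh4, a retinol dehydrogenase that is also a lower-villus gene here, had 9 in FMTg and 152 in Tg (-2.41, -3.56 to -1.44). The more abundant Adh1 was at 163 CPM in FMTg and 134 CPM in Tg (0.29), and Rdh7 at -0.27. Dio1, the deiodinase that activates thyroid hormone, had 12 UMIs in FMTg and 241 in Tg (-2.66, -3.63 to -1.82), and Slc37a2, a sugar phosphate antiporter, 9 and 146 (-2.35). Together with Unc93a (-2.50) and Gm2061 (-2.21), these were among the 10 lowest genes of the members.

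Stress genes had a median of -0.41, with 9 of 24 measured genes at least 1.5-fold lower in FMTg and 2 higher, against 7.63% and 9.98% of all genes. The inducible heat shock protein genes stood lowest. Hspa1a had 11 UMIs in 7 FMTg barcodes and 558 in 101 Tg barcodes (-3.99, -5.003 to -3.14), and the neighbouring near-identical copy Hspa1b 38 and 892 (-2.88, -3.39 to -2.41), so reads may be split between them. Both were lower in mid-villus barcodes too, at -3.46 and -2.26. The difference was not limited to enterocytes. In thinned leukocyte barcodes a Hspa1a UMI was found in 0.52% in FMTg and 9.95% in Tg, and a Hspa1b UMI in 1.25% and 18.3%. The stress list summed to 6586 CPM in FMTg and 10603 CPM in Tg leukocyte barcodes. The immediate early genes Fosb (-1.003), Ier2 (-0.89) and Jun (-0.79) were lower as well. The 2 higher genes were the mitochondrial chaperonin pair Hspd1 (93.8 CPM in FMTg and 56.3 CPM in Tg) and Hspe1 (226 and 128 CPM), named, like Ier2 and Jun, after their values were seen. The constitutive chaperone gene Hspa8 was at 1628 CPM in FMTg and 1424 CPM in Tg (0.19). The labels do not give the time each tissue spent in handling.

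The glycolysis list lay below 0 and oxidative phosphorylation close to it. The glycolysis list had its median at -0.42. Gapdh was at 1374 CPM in FMTg and 1836 CPM in Tg (-0.42), Eno1 at -0.61 and Pkm at -0.55, and 2 of 13 were past 1.5-fold lower (Eno1 and Pdk4), against 7.63% of all genes. The glycolysis median was also below 0 in mid-villus (-0.30) and tip barcodes (-0.24). In leukocyte barcodes the glycolysis list summed to 2219 CPM in FMTg and 3885 CPM in Tg. Oxidative phosphorylation had a median of 0.015, and 1 of 76 genes was past 1.5-fold, Atp5k, an ATP synthase subunit (948 CPM in FMTg and 600.5 CPM in Tg). In tip barcodes the same list had a median of -0.45.

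Immune-facing lists had smaller medians than the p53 list. The interferon response had a median of 0.24, with 10 of 43 higher and 3 lower (9.98% and 7.63% of all genes), but its summed level was 3060 CPM in FMTg and 3025 CPM in Tg. High ratios there can rest on single barcodes: 51 of 55 FMTg UMIs of the chemokine gene Cxcl10 and 71 of 77 of the antiviral gene Rsad2. MHC class II genes had a median of 0.26, with H2-Aa at 236 CPM in FMTg and 154 CPM in Tg (0.62) and H2-Eb1 at 189 and 119 CPM (0.67), and were 0.58 in mid-villus barcodes. MHC class I genes had a median of -0.16, with 3 of 13 higher and 3 lower. Of these, H2-T3, which encodes the thymus leukaemia antigen that intraepithelial T cells bind, was at 258 CPM in FMTg and 508 CPM in Tg (-0.98, -1.10 to -0.85). The T cell transcripts Gzma (28 UMIs in FMTg and 318 in Tg) and Ccl5 (26 and 231) in the members were lower in FMTg, and 102 of the Tg Gzma UMIs were in 1 barcode.

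Lower-villus genes outside the rule and brush border genes were called about as often as all genes. Of the lower-villus list 1 of 10 was higher (Gsta1) and 1 lower (Reg1), with a median of -0.053, and of the brush border list 2 of 22 were higher and 1 lower, with a median of -0.073, against 9.98% and 7.63% of all genes. The brush border calls were Krt19 at 971 CPM in FMTg and 430.4 CPM in Tg (1.17, 1.09 to 1.25), Krt18 at 1.05, and the actin-bundling gene Espn at -0.69. Gsta1, the lower-villus glutathione S-transferase, was at 407 CPM in FMTg and 155 CPM in Tg (1.39, 1.26 to 1.51) and its ratio was 1.34 in proximal-rich and 1.99 in proximal-poor members. Dmbt1 was at 485 CPM in FMTg and 157 CPM in Tg (1.63, 1.51 to 1.75), Cldn2 at 1.44 and Pycard at 0.96. Gsta4, also high in the lower villus, was at -0.077. Of 4 measured genes in the crypt list, 1 was at least 1.5-fold higher and 2 lower, against 9.98% and 7.63% of all genes. The lower ones were the Wnt target genes Axin2, with 16 UMIs in FMTg and 118 in Tg (-1.21, -2.06 to -0.45), and Rnf43, with 7 and 101 (-2.18, -3.53 to -1.08). The summed crypt list was close, at 66.9 CPM in FMTg and 61.9 CPM in Tg (0.11, -0.16 to 0.38), and its mid-villus median was 0.64.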

How the data were processed

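Single-cell suspensions of fresh small intestine were processed with the 10x Chromium 3′ protocol, per the labels. The deposited tables hold raw UMI counts for every gene and cell barcode. The submitters' processing notes name CASAVA 1.8.1, Cell Ranger 3.0 and the build mm10. Of 31053 gene symbols, 30416 matched 1 gene of GENCODE vM21 (GRCm38), which gave positions. The authors' filters and annotation release are not given in the sources used here. Libraries held 6382 FMTg and 6270 Tg barcodes, with medians of 5109 and 5509 UMIs.

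Groups followed the labels. UMIs of members were summed per library and divided by their total (CPM). Log2 ratios have exact conditional binomial intervals and shares exact Clopper-Pearson intervals, at 95%. Genes with at least 50 UMIs over both libraries were compared, and a gene was called at 1.5-fold. A gene at 0 in 1 library was set to 3 counts there. List medians took genes past the same minimum, without genes of the rule. Members were thinned to 3000 UMIs for shares of barcodes with a UMI. Doublets stayed in; as an alternative, scrublet in scanpy 1.11.5 removed 145 FMTg and 155 Tg barcodes at the expected rate, while its automatic threshold marked 10 and 15.

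Named genes are Mdm2, Trp53 and Cdkn1a, the 10 highest and 10 lowest FMTg over Tg ratios among genes with at least 100 UMIs and a UMI in at least 10% of members of the higher library (without Xist, Tsix, Y-linked, antigen receptor, mitochondrially encoded, ribosomal protein and rule genes), the same for lower-villus over other enterocytes in both libraries, and up to 4 most abundant and 4 largest ratios per list; the text prints a selection. Other names were chosen after their values were seen. The members and lists were chosen with earlier results of these data known. The ratio calculation was tested on simulated counts. Alternatives covered mitochondrial, UMI, enterocyte-gene and gene minimums, the zone scores, doublets, TMM (edgeR 4.0.16), DESeq2 1.42.0 size factors, reduced totals and equal weight per cell. Python 3.11.15, numpy 2.4.6, scipy 1.17.1 and R 4.3.3 were used.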

Additional observations from a re-analysis of the deposited data

Results flagged for a closer look

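Among the genes named in the text, 7 had FMTg over Tg ratios past 1.5-fold in opposite directions in lower-villus and mid-villus barcodes, with both counting intervals away from 0. The named genes were chosen partly for large ratios, and the share of all measured genes with such opposite ratios was not counted. Whether 7 is many or few therefore cannot be said. The difference between the classes was not tested, since each is 1 library per genotype. Pycard, the inflammasome adaptor, was at 0.96 in lower-villus and -0.67 in mid-villus barcodes. Ugt2b5, a glucuronosyltransferase, was at 1.21 and -2.82, and Bcl2l15, a Bcl2 family gene, at 0.69 and -1.03. Cybrd1, the ferric reductase, was at 0.96 and -0.67, and Hspe1, the mitochondrial co-chaperonin, at 0.82 and -0.76. Klf4, a transcription factor of differentiated epithelium, was at -0.66 and 0.64. The hormone gene Sct was at -2.33 and 3.63, but 1489 of its 1953 Tg and 75 of its 122 FMTg lower-villus UMIs were in 1 barcode each, and its ratio was 1.03 with doublets removed.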

How the results depend on the processing

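No paired analysis was possible because each genotype is 1 library, and leaving out a replicate was not possible for the same reason. Over the alternatives other than the 10% mitochondrial limit, which left fewer than 4 measured genes in each of these lists, the p53 list median stayed between 0.46 and 0.82, and the stress list between -0.50 and -0.18. A 10% mitochondrial limit left 3 FMTg and 6 Tg members, with shares of 42.9% in FMTg and 35.3% in Tg and 32 genes higher and 41 lower. It turned the log2 ratios of Apoc3 (0.31), Casp6 (0.12), Espn (1.003), Gsta1 (-0.18), Hspe1 (-0.47), Klf4 (1.38), Krt19 (-0.60), Pycard (-1.88) and Reg1 (0.77). A 50% limit gave shares of 14.0% in FMTg and 40.4% in Tg, and medians of 0.52 for interferon, -0.23 for sugar and peptide and -0.14 for oxidative phosphorylation genes. Enterocyte genes at 5% of UMIs or more gave 404 genes higher, a proximal median of -0.14, and turned Rsad2 (-1.29), Sct (0.046) and the goblet marker median (0.21). Zone scores divided by each library's mean gave shares of 26.6% in FMTg and 46.0% in Tg, a sugar and peptide median of -0.073, and turned Cd36 (0.031) and Klf4 (0.065). A score at least 1.5 times the next gave a Tg share of 44.2%. Removing doublets turned Sct (1.03). The proximal median was -1.07 with DESeq2 size factors, -1.08 with totals without mitochondrial and abundant genes, and -0.43 with equal weight per cell. A gene minimum of 200 UMIs gave 281 higher, 256 lower and an antimicrobial median of -0.23, and a minimum of 10 UMIs 1432, 1152 and 0.24. Alternatives chosen after seeing the data were 4. Members under 1% in every other marker list turned Reg4 (-3.85). Proximal-poor members had a proximal median of -0.14 and turned Reg4 (-4.21) and S100g (0.073). Proximal-rich members had medians of -0.27 (antimicrobial), -0.15 (sugar and peptide) and -0.22 (proximal), and turned Bcl2l15 (-0.21), Rsad2 (-1.10), Sct (3.22) and Trp53 (-0.095). Dividing members by the other proximal genes turned S100g in those under 0.1% (1.06). Why a value moved was not tested. The depth limits rare genes: with 33 FMTg and 58 Tg UMIs, the Trp53 interval ran from 0.20 to 1.499.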

Other observations

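Genes of ion and fluid transport in FMTg lower-villus members had a median log2 ratio of -0.20, 1 of 18 measured genes at least 1.5-fold higher and 4 lower, against 9.98% and 7.63% of all genes. Slc4a7, a sodium bicarbonate cotransporter, was at 151 CPM in FMTg and 321 CPM in Tg (-1.08, -1.25 to -0.92), and Slc9a2, a sodium proton exchanger, at 19.99 and 43.0 CPM (-1.10). Guca2a, which encodes guanylin, the peptide that drives fluid secretion, was higher, at 229.8 CPM in FMTg and 96.3 CPM in Tg (1.26, 1.09 to 1.42), as it was in mid-villus barcodes (2.29).

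In the unfolded protein response, Xbp1, its transcription factor, was at 201 CPM in FMTg and 109.5 CPM in Tg (0.88, 0.71 to 1.04), and Pdia6, a disulfide isomerase, at 59.1 and 29.7 CPM (0.99). Herpud1, which helps clear misfolded proteins, was lower (-0.79), and the list median was 0.21. Antioxidant genes had a median of 0.025, with Sod1, a superoxide dismutase, at 238 CPM in FMTg and 154 CPM in Tg (0.64). The drug exporter gene Abcb1a was at 49.5 CPM in FMTg and 25.1 CPM in Tg (0.98), and Cyp2j6, a cytochrome of xenobiotic metabolism, at 59.1 and 94.8 CPM (-0.68). Anti-apoptotic genes had a median of 0.21, and none of 7 was past 1.5-fold, where 9.98% of all genes were higher and 7.63% lower.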
